A study of Homo sapiens with 4 samples.

Results

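Backspliced circles of very short genomic span were examined, defined as circles whose mapped ends lay less than 500 bases apart on the genome and that were read in at least 2 of 4 libraries. The rule was met by 619 of the 45182 circular RNAs (circRNAs) listed, which is 1.37% of all and 4.04% of the 15309 read in at least 2 libraries. They came from 571 host genes. Their span ran from 114 to 498 bases with a median of 350, whereas the median span of all listed circles was 9919.5 bases. Members were chosen by span and by FPBcirc above 0 in at least 2 libraries, so span and the presence of backsplice reads are not results here. The libraries were 2 biological replicates each of control and DIS3 knock-down (KD) Flp-In T-REx 293 cells, which derive from human embryonic kidney and take up inducible transgenes at a prepared site. All of these cells, the controls included, carried an inducible Flag-HA tagged DIS3 gene, and the column names mark every library as grown without doxycycline. In the KD cells, which are a single clone (clone 8), CRISPR/Cas9 had disrupted the endogenous DIS3 gene. They are called knock-down because the uninduced transgene still gave some DIS3, so the comparison is of less DIS3 against more, in 1 clone. RNA was total RNA depleted of rRNA, sequenced with a strand-keeping kit.

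A circRNA forms when the splicing machinery joins the end of an exon to the start of the same or an earlier exon, which leaves an RNA loop with no free ends. A circle of short genomic span can hold 1 exon, or a few exons with short introns between them, while long circles span many exons and introns. Loops resist exonucleases, which need a free end, and DIS3 is a ribonuclease with both exonuclease and endonuclease activity that is also an active subunit of the exosome complex.

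The level of a circle was given as FPBcirc, the number of fragments across its backsplice junction per gigabase of mapped sequence, which counts a single junction per circle. Depth differed widely between the groups. Over 19.6 and 20.4 mapped gigabases, controls 1 and 2 gave 48895 and 55193 backsplice reads. Over 165 and 47.9 gigabases, KD 1 and 2 gave 352471 and 121507. A single read was therefore worth 0.0511, 0.0489, 0.00604 and 0.0209 FPB, and 3 reads, the limit that a count of 0 allows, were worth 0.153, 0.147, 0.0181 and 0.0626 FPB. These limits cover counting error only, since reads carried no molecular identifiers. The short circles took 2096 and 2359 of the control reads and 16639 and 5367 of the KD reads. Linear DIS3 RNA had values of 11.7 and 15.9 FPB in the KD libraries and none in the controls, where no DIS3 circle was read, so the knock-down itself could not be checked. Of 11 genes listed as markers of the kidney line, 4 had a linear value (VIM, CDH2, GATA3 and PAX2), in KD libraries only. None of the 14 markers of liver, blood, fibroblasts and keratinocytes had one. A linear value exists only where a circle of the gene was read, so a missing value does not show that a gene was silent. These counts therefore cannot check the identity of the cells. The labels call the libraries biological replicates without saying whether cultures were separate, so p-values refer to these libraries only. In the limma fits below, the variance was moderated over all circles or genes tested. Those p-values therefore do not measure the spread of a single circle or gene by itself.

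The sequences around the ends of short circles were looked up because a backsplice should join an annotated splice donor to a splice acceptor. Sequence was at hand only where an end fell in a RefSeq window around a gene start (250 bases before to 50 after, GRCh38.p14), which held 8 upstream ends and 2 downstream ends of short circles. The lines give each end 5′ to 3′ on the strand of the host gene. Capitals mark the AG just before the first base of the circle, or the GT just after its last base.

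ANKRD6, chr6:89566812-89566841, plus strand: acctttgttttgtaacccctAGgtcccgaa
FOXP2, chr7:114426480-114426509, plus strand: gatacttcttaatcacttttAGgtattaag
MIDEAS, chr14:73737290-73737315, minus strand: tgttcccatcttgtccAGgatggcag
MSANTD3, chr9:100441884-100441913, plus strand: tgcttcaaacttccttttacAGgatagcta
PHF3, chr6:63646505-63646534, plus strand: tattttttttgtctttctatAGggctgaaa
RC3H1, chr1:173993128-173993157, minus strand: tttcctttttctttattttcAGgttatatt
RCAN3, chr1:24514292-24514321, plus strand: gcattttctttttttttaacAGtgggtgcc
TRAK1, chr3:42087082-42087111, plus strand: ctctctttcaattgtcccatAGattcccta
ITGB5 (donor side), chr3:124796378-124796407, minus strand: caagggagtcctctgctcagGTaagtgtcc
SPOP (donor side), chr17:49618971-49619000, minus strand: agcttaccctcttctgcgagGTgagtcctt

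All 8 upstream ends were preceded by AG and both downstream ends were followed by GT. These are the bases found at the edges of nearly all introns. AG stood at 7.26% and GT at 4.62% of the positions in the 35116 RefSeq windows, read on the strand of each gene, and 99.99% of the windows held at least 1 AG. Longer circles read in at least 2 libraries had AG at 119 of 119 upstream ends and GT at 22 of 22 downstream ends. Among circles of span under 500 bases read in only 1 library, AG preceded 13 of 16 upstream ends. C and T made up a median of 80% of the 20 bases before the AG in the 7 short circles with all 20 bases at hand, against 75% in 115 longer circles, which is the pyrimidine-rich stretch typical of acceptors. The first base of the FOXP2, MSANTD3 and RCAN3 circles was the very base at which RefSeq places a transcript start, and that of the PHF3 circle lay 1 base downstream of one. The circles of RCAN3, a calcineurin inhibitor, and RC3H1, an RNA-binding ubiquitin ligase, were the ones of these 10 with the most reads. RCAN3 had 0 and 15 reads in the controls and 14 and 9 in KD. RC3H1 had 1 and 0 in the controls and 38 and 12 in KD. The others ranged from 0 to 3 reads in a control library and from 0 to 28 in a KD library.

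Short spans were not evenly filled. Of the 1998 circles listed below 500 bases, 1379 (69.0%) were read in 1 library and so were not kept, close to the 66.1% of all listed circles. The kept share was 15.7% of the 331 listed from 100 to 199 bases, 30.4% of 570 from 200 to 299, 34.0% of 527 from 300 to 399 and 37.9% of 568 from 400 to 499. Listed circles numbered 25 from 125 to 149 bases and 143 from 150 to 174 bases, so the table holds few circles below 150 bases. Read length and any minimum span of the circRNA caller are not given in the sources used here. Among the shortest members were those of PRKG1 at 114 bases (0 and 0 control reads, 3 and 1 KD reads) and HNRNPA2B1 at 123 bases (0 and 0, 4 and 5). RECQL4 at 130 bases and ZNF711 at 144 had at most 3 reads in any library. These 4 were thus near the limit of detection.

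**Figure D1:**
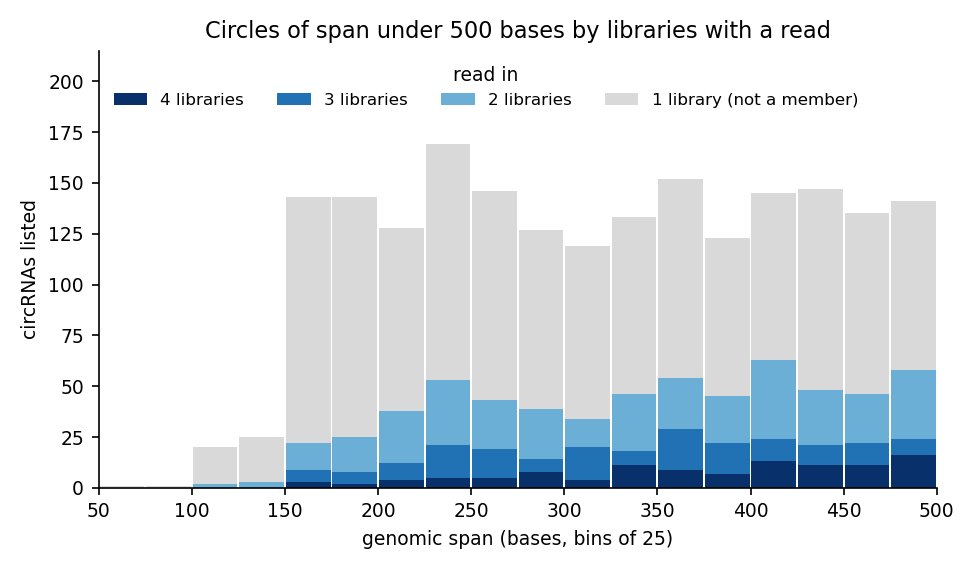
Number of circles listed per 25 bases of genomic span, coloured by the number of libraries with a read; grey circles were read in 1 library and are not members. Few circles are listed below 150 bases, and circles read in all 4 libraries are most frequent near 500 bases.

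At the limit of 500 bases, the closest members inside were of CSTF3 at 498 bases (0, 0, 5 and 5 reads in control 1, control 2, KD 1 and KD 2), ZNF568 at 497 (0, 0, 20 and 1) and ZFHX3 at 497 (0, 0, 15 and 7). ZNF3 and MACF1 followed at 496 bases, as did CHSY1 with 116, 147, 566 and 196 reads. Just outside, circles of ANKLE2, DCTN2, ZMYM4 and RBM28 at 500 bases had at most 16 reads in a library, and FAM210A at 501 had 19, 5, 8 and 7. FARSA at 506 bases had 11, 6, 395 and 141. Low and high counts therefore lay on both sides of the limit. Members had a median of 11 reads over the 4 libraries together, 268 of them had fewer than 10, and 19 reached a mean of 1 FPB. The median of the mean FPBcirc was 0.0474 for short circles, 0.0555 for circles of 500 to 999 bases and 0.0462 for those of 1000 bases or more.

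Chromosome 19, which is dense in genes, gave 70 short circles, 11.3% of them, against 2.92% of longer circles read in at least 2 libraries. Chromosome 16 gave 7.43% of the short and 3.83% of the longer circles. Chromosome 5 gave 2.75% against 5.82%, and chromosome 1 gave like shares of 11.3% and 10.9%. These are descriptions, since circles of 1 host are not independent. The median length of host genes was 61834 bases for short circles, 54295.5 for circles of 500 to 999 bases and 72127 for longer ones. Hosts were protein-coding for 594 members and long noncoding for 10. The span was a multiple of 3 for 33.0% of the short circles.

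Most short circles shared an end with another circle. An end was shared with another listed circle for 71.6% of short circles, 74.5% of circles of 500 to 999 bases and 91.4% of longer ones, and both ends for 21.2%, 22.7% and 51.4%. Among circles read in at least 2 libraries, a short circle was the most abundant of its host in 319 of 619 cases (51.5%). In 68 cases it was the only circle listed for its host. Most hosts (526) gave 1 short circle, 42 gave 2 and 3 gave 3. The 3 hosts with 3 short circles were SMC1A, a cohesin subunit, UHRF1, which binds methylated DNA, and GCN1, an activator of a translation-control kinase. In SMC1A, circles of 328, 380 and 259 bases had 20, 0 and 4 reads in control 1, 19, 3 and 0 in control 2, 22, 31 and 2 in KD 1 and 7, 6 and 2 in KD 2. The largest of the control values thus belonged to one circle, while the 380-base circle led in KD 1. In UHRF1 the circle of 404 bases had 0 and 0 reads in the controls and 60 and 11 in KD, that of 386 bases had 1 and 2 against 28 and 7, and that of 319 bases had 0 and 1 against 0 and 2. Circles of GCN1 had at most 2 reads in a control and 21 in a KD library.

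The most abundant short circle was that of RBM14-RBM4 (chr11:66639700-66640123, 424 bases), which RefSeq also places in RBM4, an RNA-binding regulator of splicing. It had 132 and 168 reads in the controls and 473 and 140 in KD, or 6.75 and 8.22 FPB against 2.86 and 2.92. Both KD values were below both controls, by about the same amount. Because RBM4, RBM14 and their read-through transcript overlap, the host is uncertain. CHSY1, a chondroitin sulfate synthase, gave a circle of 496 bases (chr15:101235082-101235577) at 5.93 and 7.19 FPB in the controls and 3.42 and 4.09 in KD. The groups did not overlap here either, with KD lower.

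PVT1, a long noncoding RNA next to MYC, gave a circle of 410 bases (chr8:127890589-127890998) at 4.09 and 4.84 FPB in the controls and 4.27 and 5.22 in KD. Its groups overlapped. CRKL, an adaptor protein of tyrosine kinase signalling, stood out among these for a higher level in KD, at 3.48 and 3.42 against 5.34 and 6.09 FPB (chr22:20933779-20934244). EPHB4, an ephrin receptor kinase, had 1.84 and 3.72 FPB in the controls and 3.33 and 4.01 in KD, a spread between controls that covered a KD value. FKBP8, an immunophilin of the outer mitochondrial membrane, had 3.38 in each control and 2.75 and 2.84 in KD.

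CLASP1, which tracks microtubule ends, had 4.70 and 3.33 FPB in the controls and 1.56 and 2.00 in KD (chr2:121605701-121606180). LRP6, a Wnt co-receptor, had 3.22 and 3.91 against 1.81 and 2.63. SAFB2, a nuclear scaffold protein that binds RNA, had 3.12 and 3.28 against 0.780 and 1.38 (chr19:5604583-5604936). In all 3 the KD libraries were the lower ones. SMARCA5, the ATPase of ISWI chromatin remodellers, had 2.97 and 2.05 FPB in the controls and 0.629 and 1.19 in KD (chr4:143543509-143543972). ZNF608, a zinc finger protein, had 1.79 and 1.47 against 1.71 and 1.77, and PCMTD1 had 2.66 and 1.17 against 0.725 and 1.27. Groups overlapped for these last ones, ZNF608 and PCMTD1, but not for SMARCA5.

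**Figure D2:**
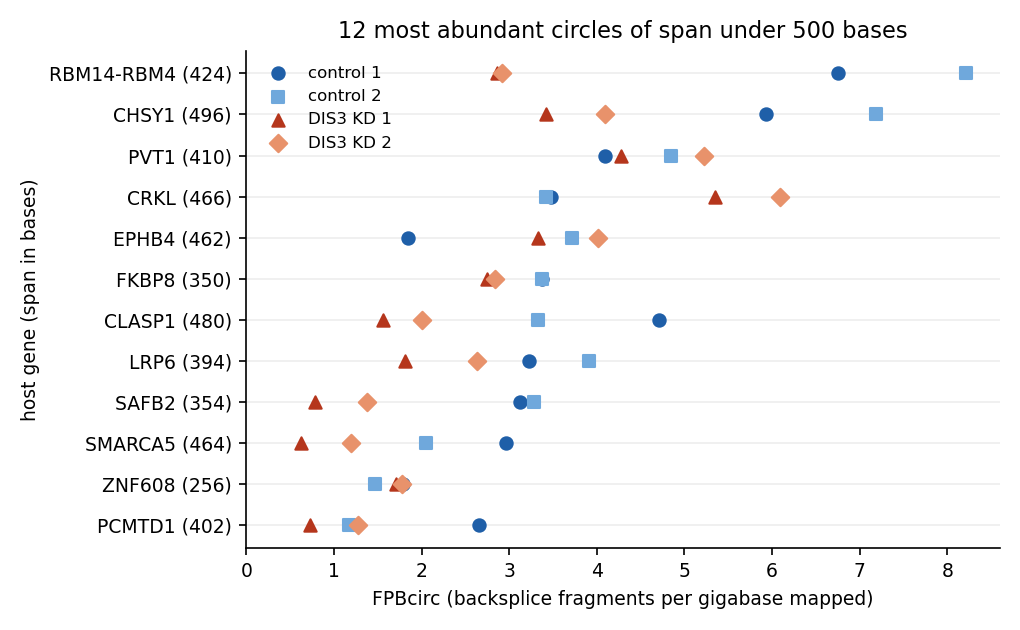
FPBcirc in each library for the 12 short circles of highest mean level, with the span in bases beside the host. KD values lie below both controls for RBM14-RBM4, CHSY1, FKBP8, CLASP1, LRP6, SAFB2 and SMARCA5, a pattern held by 38.4% of all 2427 circles tested further on, and above both for CRKL.

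Many short circles were read in 1 group only, and depth moved with the group. Control libraries showed 258 and 249 of the 619 and KD libraries 587 and 516. Of all 45182 circles listed, the controls showed 8357 and 8566 and KD 32259 and 20231. Backsplice reads were also thinned in proportion to the mapped gigabases of the shallowest library, where short circles still had to be read in 2 libraries. That left 396.75 short circles (means of 20 draws), of which the controls showed 221.0 and 216.25 and KD 323.65 and 320.85. Such thinned counts are not given for all circles, so the difference cannot be called particular to short circles. Presence was part of the rule, so these counts are a description. No control read was found for 249 members (40.2%), near the 38.1% of all circles read in at least 2 libraries. Counting 3 reads over both controls as a limit (0.0750 FPB), 62 of the 249 (24.9%) had a KD mean above it and 39 (15.7%) had both KD libraries above it. Of all 5839 circles read in at least 2 libraries but in no control, the shares were 22.8% and 12.4%. LDLRAD3, a membrane protein with a receptor domain, led them at 0.894 and 0.689 FPB in KD (148 and 33 reads; chr11:36227085-36227430). Its KD mean was 10.6 times that limit. YPEL2 followed at 0.459 and 0.480 FPB (6.26 times the limit), then MYBL2, a cell-cycle transcription factor, at 0.471 and 0.230 (4.67 times).

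Absence from a control was common by itself. Of 210 cases in which a short circle had at least 5 reads in one control, the other control had 0 reads in 48 (22.9%), against 29.7% of such cases among all circles read in at least 2 libraries. Conversely, 7 members were read in both controls and in neither KD library. NRDC, a metalloprotease, had 9 and 3 control reads (0.460 and 0.147 FPB), and SMCHD1, a chromatin protein, had 4 and 5 (0.205 and 0.245 FPB). The others, of KATNAL1, CHEK2, NAP1L1, CD2AP and an unnamed gene, had at most 3 reads in a control.

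To test single circles, FPBcirc was compared between KD and control with limma on log2(FPBcirc + 0.0349) over the 2427 circles with a mean of at least 0.174 FPB. This filter was passed by 114 short circles. A circle can pass through the group in which it is high, so the counts below describe these 114 and not all 619. Folds are differences of mean log2 values on this scale and can differ from a ratio of means. For a circle with a control at 0 the fold depends on the amount added and is no bound, as for DYNC1H1, PTPN14, CUX1 and LDLRAD3. None of the 114 passed an adjusted p of 0.05 in either direction, against 0.0824% of all tested circles called higher and 0.453% called lower. An unadjusted p under 0.05 was reached by 11 higher (background 5.11%) and 9 lower (background 14%). Groups did not overlap for 24 that were higher in KD (21.1%, background 16.2%) and 38 that were lower (33.3%, background 38.4%). On the reads recovered from FPBcirc, edgeR called 0 short circles in either direction (background 0.0412% higher and 0% lower). DESeq2 called 13 higher (11.4%, background 7.13%) and 3 lower (2.63%, background 2.68%).

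The fold changes of the 114 ran from -3.37 to 4.55 with a median of 0.05, and 60 (52.6%) were above 0, while the median over all 2427 was -0.33 with 40.4% above 0. Other scalings moved the whole set: the median of all tested circles was 0.17 after centring each library on its median, 0.10 in edgeR and 0.09 in DESeq2. That of the short circles was then 0.55, 0.38 and 0.38. By span, the median was 0.05 for the 23 tested below 300 bases, 0.73 for the 38 from 300 to 399 and -0.42 for the 53 from 400 to 499. It was -0.08 for the 157 circles of 500 to 999 bases and -0.36 for the 2145 of 1000 bases or more. The order of these medians therefore does not follow span within the short circles.

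Of the circles that were higher in KD, that of LMF1, a factor for lipase maturation, had the smallest p (chr16:954357-954666, 310 bases). It had 5 and 16 reads in the controls and 391 and 112 in KD, or 0.256 and 0.783 against 2.36 and 2.34 FPB. The log2 fold change was 2.29 (SE 0.53, limma adjusted p = 0.0910). DYNC1H1, the heavy chain of cytoplasmic dynein, had 8 and 0 control reads and 345 and 110 KD reads, or 0.409 and 0 against 2.085 and 2.296 FPB (4.16, SE 1.06, limma adjusted p = 0.109). Both KD values lay above both controls in each, but the controls differed among themselves more than the KD libraries did. LDLRAD3 had a limma adjusted p of 0.127.

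PTPN14, a tyrosine phosphatase, had 0.205 and 0 FPB in the controls against 1.08 and 0.939 in KD. CUX1, a homeobox factor, had 0.307 and 0 against 0.973 and 0.918. Their limma adjusted p-values were 0.127 and 0.173, and each rested on a control library with no read. BCL11B, a zinc finger transcription factor, was read in every library, at 0.665 and 0.929 FPB in the controls and 2.16 and 1.77 in KD (a fold of 1.28 on the log2 scale, SE 0.37, limma adjusted p = 0.136). LRWD1, a partner of the origin recognition complex, had 0.460 and 0.391 against 1.06 in each KD library (1.25, SE 0.39, adjusted p = 0.159), and covered 10 of the 85 bases of the MIR5090 hairpin. SRCAP, a chromatin remodelling ATPase, had 0.153 and 0.196 against 0.907 and 0.564, on 3 and 4 control reads. DESeq2 called 7 of these 8, all but DYNC1H1, and also CRKL (adjusted p = 2.05e-06), PVT1 (0.0149), EPHB4 (0.0228), FUT8, YPEL2 and MYBL2.

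Among circles lower in KD, POMT1, which starts O-mannosylation of proteins, had the smallest adjusted p of all 114 (chr9:131506114-131506453, 340 bases). It had 17 and 36 reads in the controls and 20 and 3 in the deeper KD libraries, or 0.869 and 1.76 against 0.121 and 0.0626 FPB. The log2 fold change was -3.37 (SE 0.61, limma adjusted p = 0.0633; DESeq2 adjusted p = 0.00351). The 328-base circle of SMC1A (chrX:53403566-53403893) had 1.02 and 0.929 FPB against 0.133 and 0.146, at -2.53 on the log2 scale (SE 0.50, limma adjusted p = 0.0713). Its groups were far apart relative to their spread. RBM14-RBM4 was at -1.36 (SE 0.27, limma adjusted p = 0.0713) and SAFB2 at -1.59 (SE 0.37, adjusted p = 0.0941).

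CLASP1 was at -1.15 and SMARCA5 at -1.47, each with a limma adjusted p of 0.136. KLHL8, a substrate adaptor of a cullin ubiquitin ligase, had 1.64 and 1.66 FPB in the controls and 0.701 and 0.710 in KD (-1.19, SE 0.35, adjusted p = 0.140). ROBO1, the receptor for Slit guidance cues, had 1.33 and 0.978 against 0.465 and 0.438 (-1.27, adjusted p = 0.158). DESeq2 called POMT1, SMC1A and SAFB2 of these 8. Of the other abundant circles, log2 fold changes were -0.80 for CHSY1, 0.08 for PVT1, 0.72 for CRKL, 0.48 for EPHB4, -0.69 for LRP6, 0.10 for ZNF608 and -0.86 for PCMTD1. None passed limma's threshold. That of FKBP8 was -0.27, and its sign turned to 0.22 after centring and to 0.41 in edgeR and DESeq2.

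**Figure D3:**
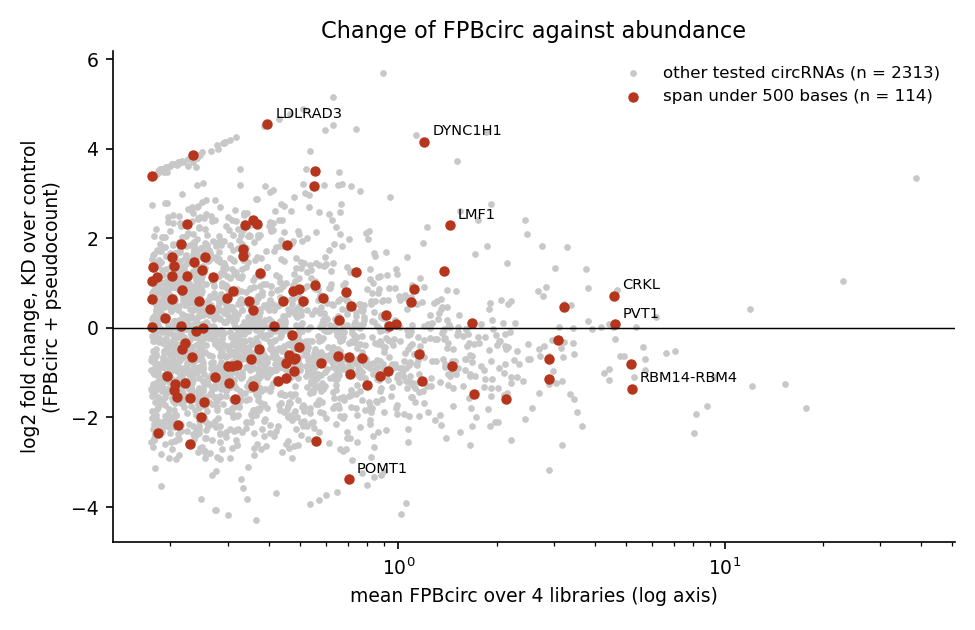
log2 fold change of FPBcirc, KD over control, against the mean FPBcirc of 4 libraries on a log axis, for the 114 short circles tested (red) among the other 2313 tested (grey). Named hosts run from LDLRAD3 at 4.55 to POMT1 at -3.37, and short circles lie on both sides of 0 at every level.

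Summed over all 619, the short circles had 107 and 115 FPB in the controls and 101 and 112 in KD. The means were 111 ± 5.81 and 106 ± 8.10 (SD, n = 2 each), a ratio of 0.955 that an exact two-sided permutation test did not separate (p = 0.667). With 2 libraries a group, this test cannot give a p below 0.333. By span, the sum from 100 to 199 bases was 3.27 and 3.82 FPB in the controls against 1.52 and 2.15 in KD, a ratio of 0.518. That from 400 to 499 bases was 61.4 and 61.2 against 50.7 and 57.9, a ratio of 0.886. Both KD values lay below both controls in these bins (exact p = 0.333 each). The bins from 200 to 399 bases overlapped between groups.

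As a share of all backsplice signal in a library, short circles took 4.29% and 4.27% in the controls and 4.72% and 4.42% in KD, a difference of 0.288 percentage points (exact p = 0.333). Circles of 500 to 999 bases took 5.66% and 5.65% against 6.54% and 6.26%. Those of 1000 bases or more took 79.8% and 80.2% against 71.8% and 77.8%, and the rest belonged to circles read in 1 library. Both KD libraries were thus above both controls for short circles and below for long ones. The rule lets in circles that only the deeper KD libraries show. Among short circles read in at least 3 libraries, the share was 0.240 points lower in KD (exact p = 0.333). That stricter rule requires a read in a control, so it leaves out every circle that only KD libraries showed. The direction thus changed with the rule, and neither rule treats the groups alike. Thinned by mapped gigabases as above, the shares were 4.12% and 4.14% against 4.58% and 4.16%.

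**Figure D4:**
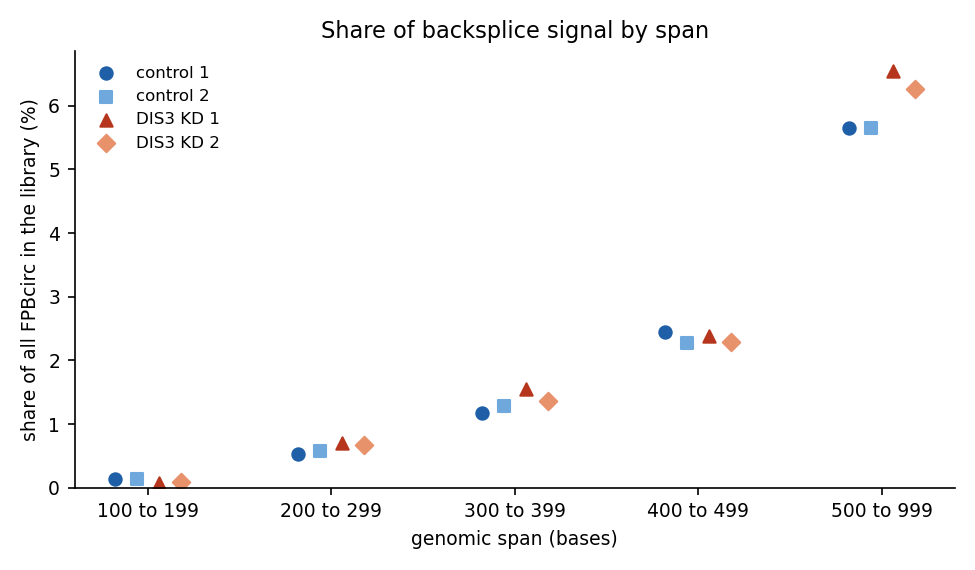
Share of all FPBcirc in each library held by circles read in at least 2 libraries, by genomic span. KD libraries lie above both controls from 200 to 299, from 300 to 399 and from 500 to 999 bases, below them from 100 to 199, and overlap them from 400 to 499.

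CIRCscore, deposited as FPBcirc divided by linear host signal, is a ratio that sets each circle against the linear RNA of its gene. Most of the 109 short circles read in all 4 libraries were minor products. Their median CIRCscore was 0.0373 and 0.0468 in the controls and 0.0284 and 0.0292 in KD. The medians were close to these, at 0.0378, 0.0364, 0.0248 and 0.0257, in the 2351 circles of 1000 bases or more read in all 4. Of the 109 short circles, 1 had a ratio of at least 1 in each library, that of BCL11B, at 5.22 and 2.94 in the controls and 2.05 and 1.20 in KD. ZC3H12B, an RNase-domain zinc finger protein, had 7.99 and 1.69 against 0.928 and 1.32. KCNH1, a potassium channel, had 1.00 and 5.62 against 0.835 and 0.413, on 1 to 10 reads. LMF1 had 0.217 and 3.11 against 0.714 and 0.855, and PVT1 0.988 and 1.68 against 0.668 and 0.851. The highest ratios thus differed widely between the control libraries.

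CIRCscore was tested for 1823 circles with a value in all 4 libraries, 86 of them short, with 0.00448 added before taking log2. Circles unseen in a control are left out here. No short circle was called, with 0% of all tested circles called higher and 0.11% lower. An unadjusted p under 0.05 was reached by 3 higher (background 2.96%) and 14 lower (background 17.9%). The ratio was higher in KD, without overlap, for 9 (background 11.6%) and lower for 36 (41.9%, background 42.6%). The median log2 fold change was -0.44 over the 86 and -0.42 over all 1823, and centring each library moved them to 0.05 and 0.06.

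The ratio of POMT1 was the farthest apart, at 0.0755 and 0.146 in the controls and 0.00659 and 0.00450 in KD (-3.46 on the log2 scale, SE 0.51, limma adjusted p = 0.118). TRIM35, a ubiquitin ligase, had 0.0626 and 0.130 against 0.0114 and 0.0250 (-2.14, SE 0.58, adjusted p = 0.160). For ZEB1, a transcription factor of epithelial to mesenchymal transition, the ratios were 0.0704 and 0.0539 against 0.0164 and 0.0223 (-1.48, adjusted p = 0.178). GTF2E1, a subunit of general factor TFIIE, had 0.103 and 0.0915 against 0.0332 and 0.0369, and RBM14-RBM4 had 0.303 and 0.271 against 0.112 and 0.117. In all 5 the KD ratios lay below both controls. The same held for CLASP1, SAFB2 and the 328-base circle of SMC1A, with limma adjusted p-values of 0.192, 0.192 and 0.160.

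In the other direction, CCAR1, a coactivator in cell-cycle and apoptosis control, had ratios of 0.00800 and 0.0146 in the controls and 0.0532 and 0.0526 in KD (1.89, SE 0.46, limma adjusted p = 0.144). Its circle was at 0.153 and 0.587 against 0.490 and 0.668 FPB, and its linear RNA fell, so the higher ratio came with less linear RNA. BRWD3, a bromodomain protein, had ratios of 0.0257 and 0.0164 against 0.0527 and 0.0871, and SRCAP had 0.00772 and 0.00761 against 0.0284 and 0.0202. GSE1, LRWD1 and PSMB5 also had both KD ratios above both controls, at limma adjusted p-values from 0.249 to 0.556. PHIP and CDK14 overlapped between groups. None of these 8 passed the threshold.

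**Figure D5:**
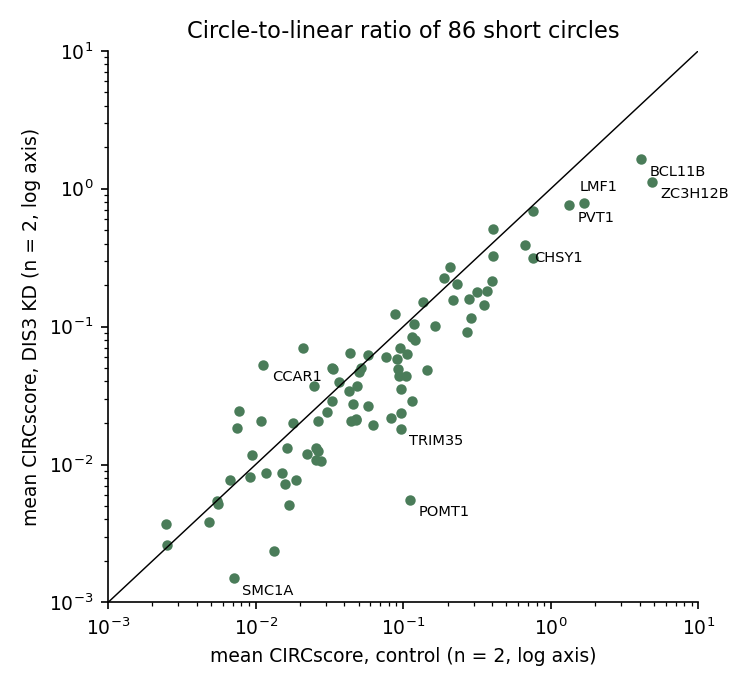
Mean CIRCscore in KD against control (n = 2 libraries each, log axes) for the 86 short circles tested, with the line of equal values. More points lie below the line than above it, POMT1 and TRIM35 far below and CCAR1 above.

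Linear RNA of the hosts was tested once per gene, for the 329 short-circle hosts among 2547 genes with a value in all 4 libraries, with 1.16 added before taking log2. It was called higher in KD for 52 (15.8%, background 11.3%) and lower for 53 (16.1%, background 24.3%), and the median log2 fold change was 0.0 against -0.17 over all genes. Centring each library on its median gave 93 higher (background 21.7%) and 53 lower (background 22.9%). A value exists only where a circle of the gene was read, which selects hosts with circles in both groups. The changes below passed limma's threshold.

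HMBOX1, a homeobox protein that binds telomeres, fell from 4.03 and 4.61 FPB to 0.0242 and 0.0939 (log2 fold change -2.16, SE 0.15, limma adjusted p = 1.32e-43). Its short circle, of 477 bases, had 3 and 0 reads in the controls and 3 and 6 in KD, too few to compare. Linear values here are derived from the deposited ratio, whose linear term is not defined in the sources used here, and the KD values of HMBOX1 lie far below the 1.16 added, so its fold depends on that amount: it ran from -2.94 with 0.5 times that amount to -0.93 with 4 times. VRK1, a nuclear kinase, fell from 38.8 and 42.6 to 7.93 and 20.5 FPB (-1.57, adjusted p = 1.24e-07). PANK3, which makes a precursor of coenzyme A, TPM3, a tropomyosin, CCAR1 and CD2AP, an actin adaptor, fell as well, by 1.44, 1.35, 1.31 and 1.17 on the log2 scale. CCAR1 was not called without control replicate 2 (adjusted p = 0.123).

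FGFR1, a fibroblast growth factor receptor, rose from 5.71 and 5.58 to 17.5 and 15.7 FPB (1.38, SE 0.23, limma adjusted p = 1.67e-07), and its 267-base circle had 0 and 0 reads in the controls and 32 and 3 in KD. ZFHX3, a zinc finger homeobox factor, rose from 1.54 and 1.96 to 6.34 and 5.02 FPB (1.23, adjusted p = 3.22e-08). LMF1, whose circle was the clearest of those higher in KD, rose in linear RNA too, from 1.21 and 0.245 to 3.31 and 2.74 FPB (1.19, adjusted p = 3.09e-11). FAM168B rose by 1.19 on the log2 scale and was not called without control replicate 1 (adjusted p = 0.0657). The calls of ZNF850 (1.27) and ZNF711 (1.28) were lost in 3 and 3 of the 4 fits with a library left out, and that of ZNF711 also after centring (adjusted p = 0.166) and with the replicate number as a block (adjusted p = 0.510).

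Where circle, ratio and linear RNA could all be set side by side, for 86 short circles, the circle and the linear value were both lower in KD for 34 and both higher for 25. The circle was lower and the linear value higher for 18, and the reverse held for 9. These counts are without centring. Over all short circles tested, centring moved the median circle change from 0.05 to 0.55. Over all their hosts tested, it moved the linear one from 0.0 to 0.16. The linear value was derived from circle level and ratio, so the measures are not independent. FKBP8 had a circle at -0.27, whose sign turned under the other scalings. Its linear RNA rose (0.82, limma adjusted p = 0.00470), and its ratio was 0.0528 and 0.0359 in the controls and 0.0175 and 0.0237 in KD. PVT1 likewise had more linear RNA in KD (0.68, limma adjusted p = 0.00708). Its circle was at 0.08 in limma without centring, but at 0.75 in edgeR and 0.74 in DESeq2. Whether circle and linear RNA of PVT1 moved apart thus depends on the scaling. SMARCA5 had less of both, with linear RNA at -0.81 (adjusted p = 0.00664).

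By function, kinases and phosphatases were the largest family, with 28 short circles from 25 genes. The 4 that passed the filter, of EPHB4, PTPN14, CDK14 and MARK4, all had log2 fold changes above 0 under each of 4 scalings. The groups of EPHB4 and CDK14 overlapped, however, and EPHB4 was below 0 without control replicate 1. PTPN14 had a control library with no read. So few circles, picked by a filter that a high group can pass alone, do not show a trend of the family. Of all tested circles, 40.4% were above 0 in limma. Their median was above 0 after centring (0.17), in edgeR (0.10) and in DESeq2 (0.09). limma called none of the 4 and DESeq2 called 2 higher, EPHB4 and PTPN14, beside 7.13% of all tested circles. Membrane traffic and transport genes gave 26 (4 tested, 3 above 0), and the ubiquitin system 25 (4 tested, 1 above 0). Zinc finger proteins gave 19 circles, 6 tested with 4 above 0. Of 14 zinc finger hosts tested in linear RNA, 5 rose (ZNF711, ZNF850, ZNF567, ZNF398 and ZNF3) and 2 fell (ZNF512 and ZMYM4), beside 11.3% and 24.3% of all genes tested. The calls of ZNF711 and ZNF850 are those lost with a library left out.

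Cytoskeleton and motor genes gave 19 short circles, with DYNC1H1 above 0 and 3 others below among 4 tested. RNA-binding and splicing factors gave 16, of which 6 were tested and 4 were below 0, led by RBM14-RBM4. The abundant member of this group after it, of the helicase DHX34 (218 bases), had 1.02 and 0.881 FPB in the controls and 1.16 and 0.877 in KD. DNA replication and repair genes gave 13 with 2 tested, 1 in each direction, chromatin regulators 10 with 3 tested and 1 above 0, and noncoding hosts 10 with PVT1 alone tested. Translation factors and tRNA synthetases gave 11 circles. Only that of EIF4B was tested (0.665 and 0.489 FPB against 0.417 in each KD library), and its sign turned under the other scalings. EIF3C and EIF3CL are near-identical copies, so the circle of either gene is uncertain. Mitochondrial protein genes gave 3 and ribosomal protein genes 2, RPL6 and RPL24, and none of these passed the filter.

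Hosts known for published short circles gave 12 members. Besides PVT1, FKBP8 and SMARCA5, these included CAMSAP1, a microtubule minus-end protein (0.767 and 0.147 FPB in the controls, 0.157 and 0.209 in KD). Its controls lay far apart, and its groups overlapped. CCDC66 had 0.256 and 0.391 against 0.0907 and 0.146. Of the 6 that were tested, 1 was above 0, and 2 to 3 were under the other scalings. SMARCA5 gave a second short circle of 349 bases with 0 and 0 control reads and 5 and 3 KD reads.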

How the data were processed

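The tools named in the submitters' processing notes were Bowtie2 2.3.5 and bcl2fastq 2.20, with build hg38, and for the circRNA caller no name is given in the sources used here. FPBcirc as deposited is a depth-normalised signal, and the deposited CIRCscore a ratio, FPBcirc over linear signal, per the file headers. All FPBcirc values (100%) were whole multiples of 1 read within 0.001, which gave reads and depth. Linear signal was derived as (FPBcirc + 0.01) / CIRCscore minus 0.01. It was 1 value per host within a library for at least 99.8% of hosts with several circles.

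Groups were compared with limma 3.58.1 (R 4.3.3) on log2 values, two-sided, with trend and robust moderation of the variance, fitted over all circles that passed the filter, with Benjamini-Hochberg adjustment and a threshold of 0.05. The pseudocount was the median value of 1 read (0.0349 FPB), and the filter a mean of 5 times that. For CIRCscore and linear RNA it was the percentile 5 of the values. Recovered reads were also tested with edgeR 4.0.16 and DESeq2 1.42.0, and the fits were tested on simulated data. Sums were compared by exact permutation. Sequences and gene types came from RefSeq tables (GRCh38.p14); no genome was used. Figures were drawn with matplotlib 3.10.9.

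Named circles were the 12 most abundant, those past the threshold or else the 8 of smallest p in each direction, the shortest, those nearest 500 bases, the 8 highest CIRCscores, hosts with 3 members, published hosts, the most abundant of each family and the 6 largest linear changes each way. Circles in the sequence paragraphs, the 249 without control reads and those read in controls alone were chosen after their values were seen. Symbols caught by a family's prefix but not of that family were removed after the hosts were seen. The members and all lists were chosen with earlier results of these data known. Replicate numbers were not used to pair the libraries, except where a replicate block is named. Results of a few circles are not reported here.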

Additional observations from a re-analysis of the deposited data

How the results depend on the processing

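With limma, 0 short circles were called higher and 0 lower in FPBcirc. With 4 times the pseudocount these counts were 1 and 1 (0.783% and 1.07% of all tested circles were called), with a filter of 10 reads' worth 2 and 6 (2.64% and 13.6% of all), and with DESeq2 13 and 3 (7.13% and 2.68% of all). Same-numbered libraries did not deviate together (correlations of 0.00289, 0.0271 and 0.0652 for FPBcirc, CIRCscore and linear RNA). Over circles with few control reads, such values cannot exclude that the libraries were made in pairs. With the replicate number as a block, 4 were called higher and 6 lower (1.48% and 4.04% of all). Leaving out 1 library gave 0 to 23 higher and 0 to 16 lower. The calls came without control replicate 1 (21 and 16, with 13.2% and 18.1% of all tested circles called) or control replicate 2 (23 and 13, with 14.4% and 13.9% of all), where the lone control is assumed to vary like the KD libraries. For CIRCscore, 1 was called lower with the stricter filter (0.571% of all tested circles) and 1 with the replicate block (0.439% of all). Linear RNA gave 93 higher after median centring (21.7% of all genes). With a library left out it gave 12 to 55 higher (12 and 23 without control replicates 1 and 2) and 13 to 89 lower (18 and 13 without the controls, 27 and 89 without KD replicates 1 and 2), with 2.98% to 11.9% of all genes called higher and 7.03% to 36.0% lower.

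The median FPBcirc change of 0.05 was -0.17 with the stricter filter, 0.55 after centring, 0.63 with no filter, and -0.27 to 0.13 with a library left out. The ratio of sums, 0.955, turned to 1.04 below 400 bases and was 0.904 to 1.01 with a library left out, above 1 only without KD replicate 1. The share difference of 0.288 points was -0.240 for circles read in at least 3 libraries and 0.137 to 0.440 with a library left out. Single circles near 0 changed sign. With a library left out, PVT1 ran from -0.059 to 0.23, EPHB4 from -0.025 to 0.98, ZNF608 from -0.038 to 0.24 and the CIRCscore of CDK14 from -0.26 to 1.85, with PVT1 below 0 without KD replicate 2 or control replicate 1, ZNF608 without control replicate 2, and EPHB4 and CDK14 without control replicate 1. FKBP8 was at 0.22 after centring and at 0.41 in edgeR and DESeq2. The cause was not tested. Of the other comparisons of single circles and hosts with their alternatives, 246 of FPBcirc, 140 of CIRCscore and 98 of linear RNA kept direction and side of the threshold. Another 59, 14 and 0 passed it, and 0, 0 and 10 no longer did. Depth limits the controls: 1 read was worth 0.0489 to 0.0511 FPB there, above the median short circle's mean of 0.0474.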
